A study of Mus musculus with 2 samples.

Results

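The genes examined in calf muscle of newborn mice were 10 genes of protein folding and myosin assembly: the cytosolic HSP70 gene Hspa8, the cytosolic HSP90 genes Hsp90ab1 and Hsp90aa1, the small heat shock genes Hspb8, Cryab, Hspb1, Hspb6 and Hspb7, and the myosin chaperone genes Unc45b and Smyd1. They were chosen by name, as 10 of the 17859 annotated mouse genes with a count in at least 1 library. No measured value entered the rule, but earlier results of these data were known. All 10 were counted in both libraries, and all 10 passed the minimum of 10 counts in sum that left 11027 genes for testing. The study sequenced full-length transcripts from the gastrocnemius, a large calf muscle, of male B6CASTF1/J mice aged 4 days. B6CASTF1/J is a first-generation hybrid strain whose name joins C57BL/6J and CAST/EiJ, and the deposited counts do not separate the alleles. There was 1 group, without treatment or transgene, of 2 biological replicates with 1 library each from 2 µg of total RNA. The labels give the replicates separate biosamples but a single donor entry, and the design holds no comparison of conditions. P-values of Fisher's exact test, used below, hold counting error between these 2 libraries only, and no spread between animals.

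Heat shock proteins are molecular chaperones. HSP70 and HSP90 bind unfolded or partly folded client proteins and release them in cycles driven by ATP, while small heat shock proteins bind unfolding proteins without ATP and hold them in a state from which they can be refolded. Muscle uses this system for its filaments as well: UNC45B acts with HSP90 on the folding of the myosin head, SMYD1 works with both on thick filament assembly, and CRYAB and HSPB8 protect desmin, filamin and other structural proteins.

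The tables gave 1066347 counts in replicate 1 and 1100253 in replicate 2, where each count is a read assigned to a transcript model. Annotated mouse genes took 998659 and 1026257 of them, and levels are given as CPM, the count scaled to 1000000 of that sum. The skeletal muscle markers Acta1, Ckm, Mylpf, Tnnc2, Myog and Des together held 9.87% and 12.1% of the gene counts, with 1 of the 6 called higher in replicate 1 and 5 lower, and the heart markers Nppa and Tnni3 had 0 counts in both libraries, with 14 and 9 on Myh6 and 19 and 23 on Tnnt2. The libraries also differed in other tissues: the 5 epidermal markers had 4 counts in replicate 1, where Krt1, Krt5, Krt14 and Lor were at 0, and 869 in replicate 2. The 4 Schwann cell markers had 1424 and 3543 counts. All 9 of these markers were called lower in replicate 1. Over all 11027 genes tested, 4.49% were called higher in replicate 1 and 5.25% lower. Of the 5 fibroblast markers, with 36749 and 25416 counts, Col1a1 (log2 ratio 0.88) and Col3a1 (0.50) were called higher and Dcn (−0.21) lower. Also lower were Acta2 and Tagln of 3 smooth muscle markers (337 and 443 counts), Cldn5 of 3 endothelial markers (332 and 396) and Hba-a1 and Hbb-bs of 3 erythroid markers (211 and 347). The part of these cell types in the levels below was not tested. In bulk tissue, fewer cells of a type and less RNA per cell cannot be told apart.

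Together the 10 genes held 4420 counts in replicate 1 and 4091 in replicate 2. That was 0.443% (exact 95% interval 0.430 to 0.456) and 0.399% (0.387 to 0.411) of the gene counts, or 0.421 ± 0.0311% (SD, n = 2). The HSP70 and HSP90 genes gave 2726 and 2469 counts, the 5 small heat shock genes 1208 and 1312, and the 2 myosin chaperone genes 486 and 310. All intervals cover counting error only.

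**Figure D1:**
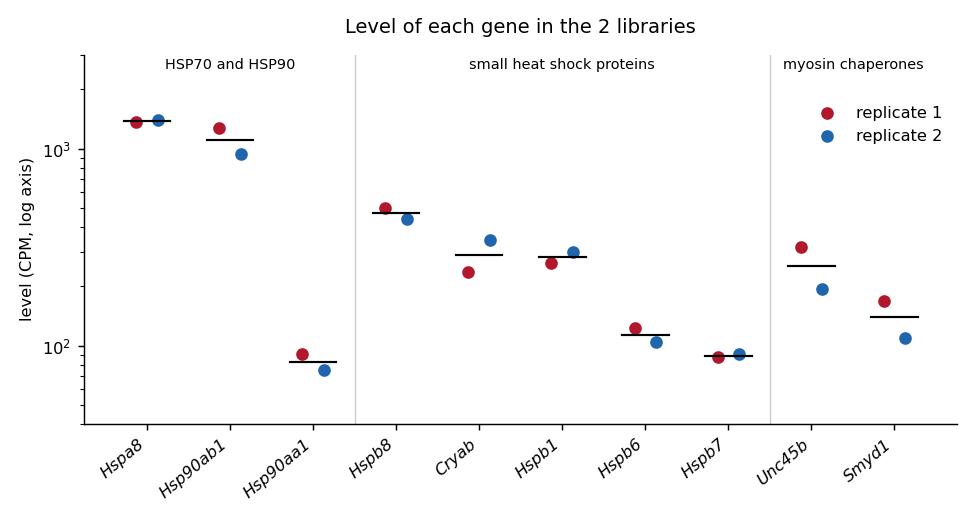
Level of each of the 10 genes in CPM on a log axis, by role, with a red point for replicate 1, a blue point for replicate 2 and a black line for their mean. Hspa8 and Hsp90ab1 stand highest, and Hsp90aa1 and Hspb7 lowest; Unc45b and Smyd1 are higher in replicate 1, and Cryab is lower.

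Hspa8 encodes HSC70, the HSP70 made in unstressed cells. It lies at chr9:40800984-40810087 on the plus strand (mm10, GENCODE M21), and its main transcript Hspa8-201 has 9 exons. Its level was 1366 CPM (1364 counts) in replicate 1 and 1395 CPM (1432 counts) in replicate 2, or 1381 ± 20.9 CPM (SD, n = 2). It ranked 49 and 51 among all genes. The log2 ratio of replicate 1 over replicate 2 was −0.03 with a 95% interval of −0.14 to 0.08, and the exact test did not call it (adjusted p = 0.842).

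Hspa8 shares its sequence with intronless pseudogene copies, and 1 of them took nearly as many counts as the gene. Of 11 annotated pseudogenes that matched at least 50% of the Hspa8 coding sequence at 85% identity or more, Gm15459 held 1290 counts in replicate 1 and 1236 in replicate 2, which equals 94.6% of the Hspa8 counts in replicate 1 and, with 1 further count on Gm8355, 86.4% in replicate 2. The other 9 copies had no counts. Gm15459 is a single exon at chr5:5781615-5783555 on the minus strand, 1941 bases long like the Hspa8 coding sequence, and differs from it at 5 of those bases. Counted from 1 at the A of the start codon, with the base of Hspa8 first, the differences are G114A, C414T, C549T, G1222A and C1440T. The stretch around G1222A is shown because it is all that separates the 2 names there, with the differing base in capitals. The Hspa8 window is chr9:40803826-40803856 (plus strand) and the Gm15459 window chr5:5782319-5782349 (minus strand).
Hspa8: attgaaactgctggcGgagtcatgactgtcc
Gm15459: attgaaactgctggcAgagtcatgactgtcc

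The counts of this pair are therefore uncertain as a split between 2 loci. With all copies added, Hspa8 stood at 2658 CPM (2654 counts) in replicate 1 and 2601 CPM (2669 counts) in replicate 2. The mean became 2629 ± 40.2 CPM (SD, n = 2), and the log2 ratio became 0.03 (95% interval −0.05 to 0.11). This sum was chosen after seeing the data. What share of the counts on Gm15459 came from Hspa8 molecules was not tested.

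**Figure D2:**
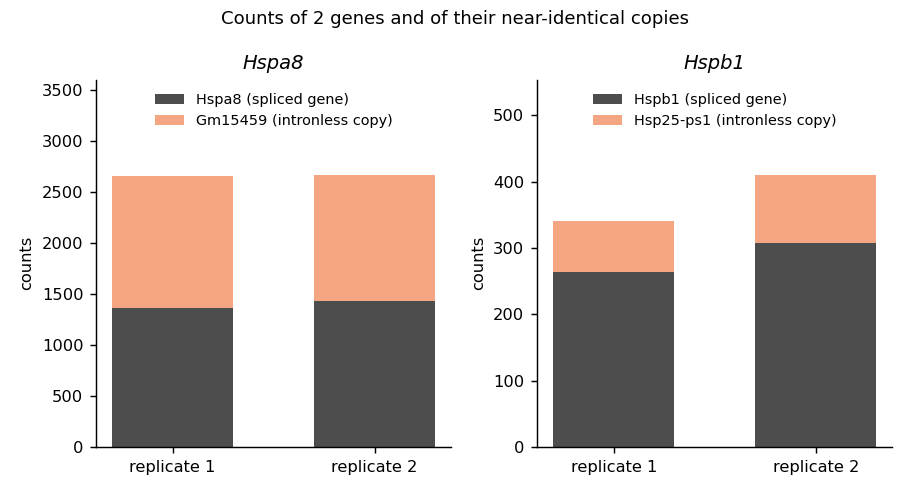
Counts in replicate 1 (left bar) and replicate 2 (right bar) on Hspa8 and on Hspb1, in grey, with the counts on their near-identical single-exon copies Gm15459 and Hsp25-ps1 stacked above in orange. Gm15459 adds 1290 and 1236 counts to Hspa8, and Hsp25-ps1 adds 76 and 102 to Hspb1.

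The 2 cytosolic HSP90 genes stood far apart. Hsp90ab1 encodes HSP90 beta, the constitutive form, and Hsp90aa1 encodes HSP90 alpha, the form that is raised by stress. Hsp90ab1 (chr17:45567775-45573271, minus strand) had 1273 CPM (1271 counts) in replicate 1 and 935 CPM (960 counts) in replicate 2. Hsp90aa1 (chr12:110690605-110702728, minus strand) had 91.1 CPM (91 counts) and 75.0 CPM (77 counts). On the scale divided by length, the means were 438 and 25.3 CPM per kb. Within a library, Hsp90ab1 had 14.0 times the counts of Hsp90aa1 in replicate 1 (95% interval 11.3 to 17.5) and 12.5 times in replicate 2 (9.88 to 15.9), so the gap between the genes was far larger than the difference between the libraries. Their coding sequences are 76.6% identical over 2174 aligned bases, and the 7 annotated pseudogene copies of the pair held 1 count in all.

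Hsp90ab1 was higher in replicate 1. Its log2 ratio was 0.44 (95% interval 0.32 to 0.57), and the exact test called it at an adjusted p of 5.33e-11 over all genes. Hsp90aa1 had a log2 ratio of 0.28 with an interval of −0.17 to 0.74 and was not called (adjusted p = 0.538).

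The stress-inducible relatives of Hspa8 were near the floor of these libraries. Hspa1a and Hspa1b, the classic heat-induced HSP70 genes, had 6 and 3 counts in replicate 1 and 10 and 7 in replicate 2, or 7.88 ± 2.64 and 4.91 ± 2.70 CPM (SD, n = 2 each). The coding sequences of Hspa8 and Hspa1a are 74.7% identical over 1923 aligned bases. Hsf1, the main factor that turns on heat shock genes, had 81 and 52 counts, and Hsf2 28 and 18. Of the 9 immediate early and heat-induced genes that mark handling of tissue, 8 were tested. Jun alone was called (74 and 43 counts, log2 ratio 0.82), while 9.74% of all genes tested were. Ier2 had 81 and 91 counts, Junb 39 in each library, and Fosb 1 and 0.

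All 5 small heat shock genes were found, over a range of 88.9 to 469 CPM. Each protein carries the alpha-crystallin domain of the family, but the coding sequences are only 60.2% (Hspb6 and Hspb8) to 67.3% (Hspb1 and Hspb6) identical over the 10 pairs.

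Hspb8 had the highest CPM of the 5. HSPB8 works with the co-chaperone BAG3 in the removal of damaged filamin. It lies at chr5:116408491-116422864 on the minus strand and had 500 CPM (499 counts) in replicate 1 and 438 CPM (450 counts) in replicate 2. The log2 ratio of 0.19 was not called (adjusted p = 0.233). Bag3 itself had 138 and 128 counts, or 131 ± 9.52 CPM (SD, n = 2), and the filamin gene Flnc 195 and 167 counts.

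Cryab encodes alpha-B-crystallin, a lens protein that is also abundant in striated muscle, where it binds desmin. It lies at chr9:50751325-50756636 on the plus strand. Its level was 235 CPM (235 counts) in replicate 1 and 345 CPM (354 counts) in replicate 2, or 290 ± 77.5 CPM (SD, n = 2). Cryab was the 1 gene of the 10 that was lower in replicate 1 by the test, with a log2 ratio of −0.55 (95% interval −0.80 to −0.31, exact test, adjusted p = 0.000171). The lens gene Cryaa, its closest relative, and the lens gene Crygs had 0 counts in both libraries.

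Hspb2 is the neighbour of Cryab on the opposite strand. The start sites of Cryab-201 and Hspb2-201 lie 614 bases apart and face away from each other. Hspb2, a small heat shock gene of heart and skeletal muscle, had 71 counts in replicate 1 and 133 in replicate 2. It too was lower in replicate 1 (log2 ratio −0.86, adjusted p = 0.000941, exact test). The annotated spans of the pair overlap, because longer Cryab forms start upstream, and the files give each model a strand.

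Hspb1, known as Hsp25 in mouse, protects actin filaments and other cytoskeletal structures. It lies at chr5:135887919-135889563 on the plus strand and had 264 CPM (264 counts) in replicate 1 and 300 CPM (308 counts) in replicate 2. The log2 ratio was −0.18 (95% interval −0.43 to 0.06) and was not called. Hspb1 also has a near-identical copy: the single-exon pseudogene Hsp25-ps1 at chr13:45078498-45079127 (minus strand) matches its 630 coding bases with 4 differences, C6T, G559A, T561C and T609C. It held 76 counts in replicate 1 and 102 in replicate 2, or 28.8% and 33.1% of those on Hspb1. The window around T609C is shown, with that base in capitals, as chr5:135889394-135889424 for the gene and chr13:45078504-45078534 for the copy.
Hspb1: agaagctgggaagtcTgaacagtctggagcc
Hsp25-ps1: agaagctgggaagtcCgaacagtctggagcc
With the copy added, Hspb1 came to 370 ± 41.8 CPM (SD, n = 2), against 282 ± 25.3 CPM without it.

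Hspb6 and Hspb7 were the lowest of the 5 in CPM. Hspb6, or HSP20, a small heat shock gene of all muscle types, had 123 CPM (123 counts) in replicate 1 and 104 CPM (107 counts) in replicate 2 at chr7:30552178-30555443. Hspb7, a small heat shock gene of heart and skeletal muscle whose protein interacts with filamin C, had 87.1 CPM (87 counts) and 90.6 CPM (93 counts) at chr4:141420779-141425311. Neither was called, with log2 ratios of 0.24 (95% interval −0.15 to 0.63) and −0.06 (−0.50 to 0.38). Of the small heat shock genes outside the 10, Hspb3 had 33 and 23 counts and Hspb11 16 and 21. Hspb9, Cryaa and Odf1, genes of testis or lens, had none in either library, which allows up to 3 counts each.

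Unc45b and Smyd1 had the largest log2 ratios of the 10 in size, with intervals that overlap those of Hsp90ab1 and, in size, Cryab. Unc45b, the muscle form of the myosin chaperone, lies at chr11:82910550-82943403 on the plus strand. It had 317 CPM (317 counts) in replicate 1 and 193 CPM (198 counts) in replicate 2, or 255 ± 88.0 CPM (SD, n = 2). Its log2 ratio of 0.72 (95% interval 0.46 to 0.98) was the largest of the 10 in size and was called by the exact test (adjusted p = 1.81e-06). Unc45a, the form of other tissues, had 41 and 24 counts.

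Smyd1 encodes a muscle-specific SET and MYND domain protein. The gene is annotated at chr6:71213940-71322233 on the minus strand. It had 169 CPM (169 counts) in replicate 1 and 109 CPM (112 counts) in replicate 2, or 139 ± 42.5 CPM (SD, n = 2). The log2 ratio was 0.63 (95% interval 0.28 to 0.99) and was called (adjusted p = 0.00641, exact test). The counts of Unc45b and Smyd1 kept a similar proportion in both libraries, at 1.88 times in replicate 1 (95% interval 1.55 to 2.27) and 1.77 times in replicate 2 (1.40 to 2.25).

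Of the 10 genes, 4 passed the test between the libraries, 3 of them higher in replicate 1 (Hsp90ab1, Unc45b and Smyd1) and 1 lower (Cryab). Over all 11027 genes tested, 4.49% were called higher in replicate 1 and 5.25% lower. The power of this test rises with depth, and of the 2020 genes with summed counts inside the range of the 10, 29.1% were called, so 4 of 10 was near the share of genes counted as deeply. The test holds counting error only. With a preset biological coefficient of variation of 0.1 between samples, edgeR's exact test called none of the 10 (4 at an unadjusted p under 0.05), and with 0.2 none either (0 at that level).

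Transcript length went with the sign of the calls over all genes, and 3 of the 4 calls among the 10 had the sign most common in their length class. Among genes whose longest annotated transcript detected was under 1500 bases, 11 were called higher in replicate 1 and 270 lower of 1709, with a median log2 ratio of −0.39, and Cryab, Hspb1 and Hspb6 are in this class. Of 5175 genes of 3000 bases or more, 389 were called higher and 66 lower, with a median of 0.22, and Unc45b, Smyd1 and Hsp90aa1 are in this class. Hsp90ab1, Hspa8, Hspb8 and Hspb7 lie between, where 86 were higher and 228 lower of 3632 with a median of −0.08. Among the calls, Hsp90ab1 went against its class. Of the genes not called, Hspb6 (log2 ratio 0.24, 95% interval −0.15 to 0.63) and Hspb8 (0.19, 0.002 to 0.375) also lay above their class medians. Their intervals leave those medians out, and the intervals of the other genes not called hold theirs. The length classes were chosen after seeing the data, and the part of length in the difference between the libraries was not tested.

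**Figure D3:**
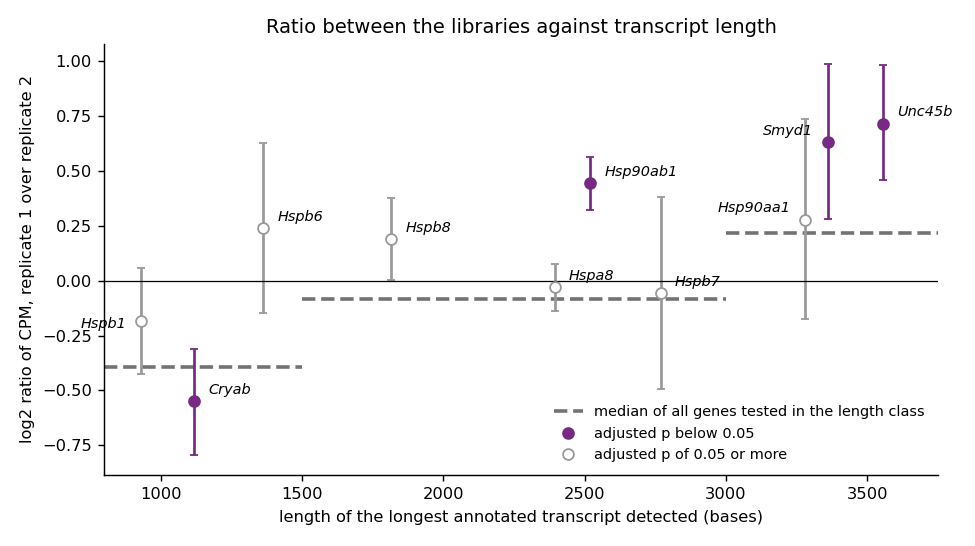
Log2 ratio of CPM, replicate 1 over replicate 2, for each gene against the length of its longest annotated transcript detected, in bases. Bars are exact 95% counting intervals, filled points have an adjusted p below 0.05, and dashed lines are medians of all genes tested in 3 length classes. Unc45b at 0.72 and Smyd1 at 0.63 lie above the class median of 0.22. Cryab at −0.55 lies below its class median of −0.39, which its interval includes. Hspb1 at −0.18 and Hspb6 at 0.24, of the same class as Cryab, lie above that median.

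Each count is a read whatever its length, so CPM was the main scale. Whether molecules of all lengths were sampled alike was not tested, and the ratios between the libraries differed by length class, as given above. Divided by the length in kilobases of the longest annotated transcript detected, the mean levels ran from 577 CPM per kb for Hspa8 and 438 for Hsp90ab1, through 303 for Hspb1, 260 for Cryab, 258 for Hspb8, 83.4 for Hspb6, 71.8 for Unc45b, 41.4 for Smyd1 and 32.1 for Hspb7, to 25.3 for Hsp90aa1. On that scale the ranges over the 2 libraries overlapped between Hspb1 and Cryab, between Cryab and Hspb8, between Hspb6 and Unc45b, and between Smyd1 and Hspb7. All other neighbours in that order were apart in both libraries. Compared with the order in CPM, the change of scale moved Hspb1 from the fifth place to the third, Hspb8 from the third to the fifth and Hspb6 from the eighth to the sixth, with Unc45b and Smyd1 each a place lower.

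Most counts of these genes fell on annotated transcripts. Known transcripts, those that match the annotation, took 91.4% of the counts of the 10 genes in both libraries, against 72.5% and 75.4% over all genes. By gene, the Known share ran from 73.6% (Hspb7) to 99.2% (Hspb8) in replicate 1. In replicate 2 it ran from 75.3% (Hsp90aa1) to 99.3% (Hspb8). Whether the reads reach both transcript ends was not tested. Incomplete matches, which hold part of an annotated intron chain (ISM), took 5.68% in replicate 1 and 6.11% in replicate 2. Of those ISM counts, 86.1% and 88.8% held the 3′ part of the chain, most of them on Hsp90ab1 and Hspa8. Hspb7 differed, with 4 of 21 and 3 of 15 ISM counts holding that part. Genomic models, which overlap a gene outside the spliced classes, held 15 of 169 and 17 of 112 counts of Smyd1. The ISM share was highest for Hspb7 (24.1% and 16.1%), Hsp90aa1 (13.2% and 22.1%) and Hsp90ab1 (10.9% and 14.3%), and it was 0 of 499 and 0 of 450 counts for Hspb8. None of the 10 was called for a difference in ISM share between the libraries (exact test, 1 of 10 at an unadjusted p under 0.05), while 2.33% of 6147 genes were.

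**Figure D4:**
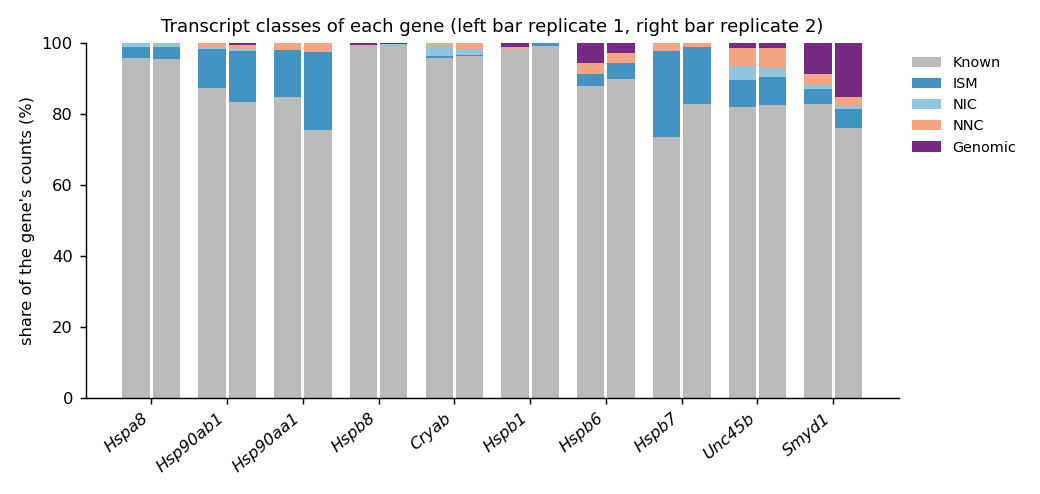
Share of each gene's counts in the 5 transcript classes, in percent, with replicate 1 as the left bar and replicate 2 as the right bar. Known transcripts (grey) fill most of each bar; ISM counts (dark blue) are most visible in Hspb7, Hsp90aa1 and Hsp90ab1, and genomic counts (purple) in Smyd1.

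For 9 of the 10 genes, 1 annotated structure held 86.3% to 100% of the full-length counts, meaning those on Known transcripts and on unannotated splice combinations (NIC) or with unannotated splice sites (NNC). Hspb8-201 held 99.8% in both libraries, Hspa8-201 98.8% in both, Hsp90ab1-201 98.0% and 97.9%, and Unc45b-201 89.9% in both. The leading structure was the same in both libraries for all 10, and none was called for a difference in its share (exact test, 1 of 10 at an unadjusted p under 0.05), while 0.449% of 5351 genes were.

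Cryab was spread over more annotated forms than the other heat shock genes. Cryab-201, with 3 exons, held 202 of 234 full-length counts (86.3%) in replicate 1 and 316 of 353 (89.5%) in replicate 2. Cryab-202, a form with 4 exons, had 12 and 14 counts, Cryab-205 5 and 7, Cryab-204 5 and 2, and Cryab-203 1 in each. A further form of 4 exons had 7 and 6 counts. Its splice sites are all annotated, but 1 of its 3 introns is not.

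Smyd1 was the exception, with 2 main forms that differ by a short exon. Smyd1-201, with 10 exons, held 86 of 147 full-length counts (58.5%) in replicate 1 and 50 of 89 (56.2%) in replicate 2. Smyd1-202, with 9 exons, held 54 (36.7%) and 35 (39.3%). The difference is exon 5 of Smyd1-201, 39 bases at chr6:71235343-71235381 on the minus strand. It lies in the coding sequence and is a whole number of codons (13), so the reading frame goes on with or without it.

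Over all models that cover this place, the exon was included in 93 of 150 counts in replicate 1 (62.0%, exact 95% interval 53.7 to 69.8) and in 53 of 93 in replicate 2 (57.0%, 46.3 to 67.2), or 59.5 ± 3.54% (SD, n = 2). The intervals overlap, and the exact test did not call a difference. It was the only 1 of 13 internal exons tested in the 10 genes with an inclusion between 5 and 95% in both libraries, against 1991 of 16789 over all genes. Each of the 13 had counts with and without it, so exons present in every count are not among them. None of the 13 differed between the libraries by the exact test (0 of 13 at an unadjusted p under 0.05), and over all genes 0.0417% did.

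**Figure D5:**
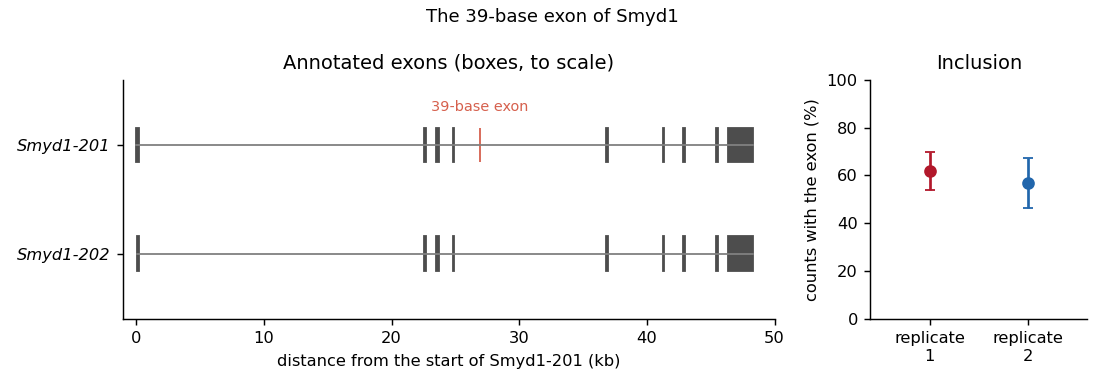
Left, exons of Smyd1-201 and Smyd1-202 drawn to scale as boxes against the distance from the start of Smyd1-201 in kb, with the alternative exon of 39 bases in red. Right, percent of counts that include it, with replicate 1 left of replicate 2 and exact 95% intervals; the points are at 62.0% and 57.0%.

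Unannotated structures were few. The full-length counts of the 10 genes fell into 108 intron chains, of which 20 are annotated, and 12 of the other 88 were found in both libraries. The most counted was a chain of 13 exons that joins 4 introns of Clmp, an adhesion molecule gene that lies upstream on the same strand, to 7 introns of Hspa8. Its first intron starts at chr9:40686360, outside the Hspa8 gene, and it had 11 counts in replicate 1 and 3 in replicate 2, or 0.833% and 0.217% of the full-length Hspa8 counts. A chain of 8 exons in Unc45b that starts inside the gene, with its first intron at chr11:82933653, had 8 and 3 counts. A chain of 11 exons in Hsp90ab1, made of annotated introns, had 7 and 4.

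Counts on the other strand of these genes were found mainly at Cryab, where Hspb2 holds them, and at Smyd1. Annotated genes on the other strand, Krcc1 and Mir8112, had 51 counts in replicate 1 and 58 in replicate 2 within the annotated Smyd1 span, and unannotated loci had 25 and 37. At Hspb6, Lin37 and Proser3 had 17 and 18.

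The rest of the chaperone network was described with 9 gene lists of 84 genes, of which 79 had a count and 77 were tested. Between the libraries 2 were higher in replicate 1 and 5 lower, or 9.09%, with a median log2 ratio of −0.03, against 9.74% and 0.04 over all genes. These shares are not matched for depth, with which the power of the test rises. The 2 higher were Hspa4, an exchange factor for HSP70 (170 and 118 counts, log2 ratio 0.56), and Hspa5, or BiP, the HSP70 of the endoplasmic reticulum (605 and 485, 0.36). The 5 lower were Hspb2, the chaperonin subunits Cct5 (392 and 528, −0.39) and Cct7 (381 and 477, −0.28), the prefoldin subunit Pfdn1 (89 and 143, −0.64) and Naca (172 and 267, −0.59), whose muscle form is a partner of SMYD1.

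Of the co-chaperones of HSP70 and HSP90, none of the 36 tested was called by the exact test (7 at an unadjusted p under 0.05). The share over all genes, not matched for depth, was 9.74%. Orders within a list are by CPM, not divided by length. Of the 15 J-domain proteins, which bring clients to HSP70, Dnaja2 was highest at 232 ± 11.6 CPM, followed by Dnajb6 at 159 ± 7.95 and Dnaja1 at 150 ± 2.01, and Dnajb9 was lowest at 30.7 ± 7.58 (SD, n = 2 each). Bag1 (259 ± 29.2 CPM), Stub1, the ubiquitin ligase CHIP (231 ± 35.4), and St13 (147 ± 13.9) led the exchange factors and ligase partners, and Bag4 was lowest (17.3 ± 2.43). Of the HSP90 co-chaperones, Sgta (289 ± 10.5), Cdc37 (256 ± 9.04) and Fkbp4 (204 ± 12.1) led, and the glucocorticoid-responsive Fkbp5 had 3 and 2 counts.

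Other organelles have chaperones of their own. Hspa9, the mitochondrial HSP70, stood at 346 ± 10.2 CPM (SD, n = 2), and the HSP90 genes of the endoplasmic reticulum and mitochondria, Hsp90b1 and Trap1, at 180 ± 4.21 and 123 ± 13.5. The chaperonin list, which mixes cytosolic and mitochondrial genes, was led by Cct5 at 454 ± 86.2, Cct7 at 423 ± 58.9 and Hspd1 at 344 ± 8.73. Pfdn4 was the lowest of that list at 12.8 ± 5.34. Hsbp1, a binding partner of HSF1, stood at 183 ± 35.6, and Hsf4 and Hsf5 had no counts. Of the other SMYD genes, Smyd2 stood at 178 ± 4.96 CPM and Smyd5 at 37.0 ± 0.0155, and Smyd3 had 4 and 2 counts.

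Most of the 11 genes listed as clients of these chaperones were higher in replicate 1, like Unc45b and Smyd1. Of 11 client genes, 8 were called higher in replicate 1 and none lower, with a median log2 ratio of 0.35, against 4.49% called higher and a median of 0.04 over all genes. Of the 1144 genes with summed counts in the range of the 11, 17.9% were called higher and 21.7% lower. The list of 11 was chosen with earlier results of these data known. The 8 were the 6 myosin heavy chain genes Myh8 (6744 and 4253 counts, 0.70), Myh4 (2260 and 769, 1.59), Myh7 (901 and 769, 0.27), Myh3 (812 and 715, 0.22), Myh1 (732 and 456, 0.72) and Myh2 (176 and 102, 0.82), with Des (5100 and 4107, 0.35) and Synpo2 (353 and 216, 0.75). Flnc (195 and 167 counts, log2 ratio 0.26), Ttn (158 and 160, 0.02) and Vim (534 and 563, −0.04) did not pass the test. Outside this list, the sarcomere genes Acta1 (log2 ratio −0.32), Mylpf (−0.30) and Tnnc2 (−0.51) among the skeletal muscle markers were called lower. The myosin heavy chain transcripts are long, like those of Unc45b and Smyd1, and the length values above apply to them as well.

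Promoters were read from RefSeq (GRCm38.p6), 250 bases before and 50 after each start site, and 6 of the 10 genes matched with 7 promoters. Hspa8, Hsp90aa1, Hsp90ab1 and Cryab had no promoter among those read, so the motif results do not cover them. The motifs searched were 4: the heat shock element with 3 units (GAANNTTCNNGAA on either strand), its forms with 2 units (GAANNTTC and TTCNNGAA, each the same on both strands, and both contained in the longer one), the TATA box as TATAAA on the gene's strand, and the E-box CANNTG bound by myogenic factors, the same on both strands. None of the 7 held the form with 3 units, which 0.603% of 32851 promoters hold. A form with 2 units was in 3 of the 7, those of Hspb1, Hspb8 and the downstream start site of Hspb6, against 15.1% of all promoters. Hspb1 had 2 of them, starting 117 and 97 bases before the start site. Hspb6 had 1 that starts 120 bases before its downstream start site, and a TATA box 29 bases before it, a motif that 8.32% of promoters hold. An E-box was in 4 of the 7 promoters, against 72.3% of all.

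The 250 bases before the start site of Hspb1 (chr5:135887669-135887918, plus strand) and the 227 bases that end with the TATA box before the downstream start site of Hspb6 (chr7:30553051-30553277, plus strand) are shown because they hold heat shock elements with 2 units and the TATA box, which are in capitals; E-boxes are left in lower case. GENCODE places the start of Hspb1-201 at the RefSeq site itself, and that of Hspb6-201 a little upstream of the RefSeq site, so that the TATA box of Hspb6 lies just inside that transcript.
Hspb1: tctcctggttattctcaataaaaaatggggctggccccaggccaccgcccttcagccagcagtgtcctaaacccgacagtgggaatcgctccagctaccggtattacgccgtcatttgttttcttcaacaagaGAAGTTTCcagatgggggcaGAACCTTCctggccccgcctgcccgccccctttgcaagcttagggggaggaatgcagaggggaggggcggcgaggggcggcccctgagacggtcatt
Hspb6: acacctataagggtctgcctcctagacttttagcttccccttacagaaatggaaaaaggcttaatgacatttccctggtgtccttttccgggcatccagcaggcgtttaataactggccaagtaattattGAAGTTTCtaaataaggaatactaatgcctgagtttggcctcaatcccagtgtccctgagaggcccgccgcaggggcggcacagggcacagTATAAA
A match is a description of the letters and not a bound site.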

How the data were processed

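Long-read RNA sequencing of 2 gastrocnemius libraries was analysed from the deposited transcript tables. These hold raw counts of reads per transcript model, in TALON format, with exon coordinates on mm10 and GENCODE M21 names, per the file headers and the readme beside the files. The platform, the aligner and the tool versions were not given in the sources used here. Counts on annotated genes were summed over all transcript classes and scaled to CPM. Unannotated loci (3.88% and 5.36% of counts in replicates 1 and 2) and spike-ins (2.47% and 1.37%) stayed out.

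Each gene with a summed count of 10 or more was compared between the libraries by Fisher's exact test (two-sided), and shares within a gene by the same test at 20 or more counts in each library, with Benjamini-Hochberg adjustment at 0.05 over all features (scipy 1.17.1). Ratios used a prior count of 0.5, and intervals are exact Clopper-Pearson at 95%. With 1 group of 2 libraries, edgeR's quasi-likelihood test could not be used, and a sign-flip test has a smallest p of 0.5. edgeR 4.0.16 gave the alternative tests, TMM and a common biological coefficient of variation of 0.211 between the libraries, and DESeq2 1.42.0 gave size factors. Unannotated models were matched by intron chain. Coding sequences came from GENCODE M21, and copies were found with blastn 2.17.0. Protein sequences were not used here, so coding sequences were compared instead.

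The members and lists were chosen with earlier results of these data known. Of each gene list, the text names the 3 genes with the highest mean CPM, the lowest, those without counts and those called; cell type markers are given mainly by their sums. Others (Hspa1a, Bag3, Flnc, Unc45a, Clmp and the pseudogenes) were chosen after their values were seen.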

Additional observations from a re-analysis of the deposited data

Results flagged for a closer look

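Signals from 3 sources lay outside the counts of the 10 genes and above the 3 counts that a count of 0 allows. Gm15459, a pseudogene copy of Hspa8 with no intron, held 1290 counts in replicate 1 and 1236 in replicate 2. Hsp25-ps1, a pseudogene copy of Hspb1, held 76 and 102. Unannotated loci on the strand opposite Smyd1 held 25 and 37. The origin of these counts was not tested. With 1 group of 2 libraries, no test for outlying samples or for differences between groups could be made.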

How the results depend on the processing

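The 4 calls among the 10 genes were the same genes under TMM, DESeq2 size factors, count minimums of 1 and 20, Known, NIC and NNC transcripts alone, and with pseudogene copies added. The count fell to 0 of 10 under a preset biological coefficient of variation of 0.1, 0 under 0.2 and 0 with an absolute log2 ratio of at least 1, while 172, 56 and 347 of all genes were called, against 1074. A test that allows for spread between animals, or a fold minimum, is stricter by construction. The summed share of 0.421% came to 0.554% with the pseudogene copies added, an alternative chosen after seeing the data, and ranged from 0.399% to 0.443% over single libraries. Of 44 alternative log2 ratios, 43 kept their sign and side of the threshold; that of Hspa8 changed sign to 0.03 with copies added and was not called either way. Called genes were higher in replicate 1 for 46.1% of calls, 38.8% with DESeq2 size factors, and 27.3% and 8.93% under the 2 preset coefficients. No paired analysis was possible because there is 1 group. Depth limits the rare structures, with 11 counts or fewer.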
